A study of Mus musculus with 6 samples.

Results

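The genes of the cytosolic ribosomal proteins were measured in regulatory T cells (Tregs) lacking HDAC11, a histone/protein deacetylase, and in WT Tregs. The arrays read each gene through probe sets, groups of short probes that together give 1 value per array. Members were all probe sets whose platform annotation names 1 gene with a symbol beginning with Rpl or Rps, the kinase genes Rps6k left out. They comprised 101 of 22626 probe sets tested and 49 of 12393 genes. Of these, 46 probe sets measured 26 genes of the large subunit (Rpl) and 55 measured 23 genes of the small subunit (Rps). Canonical subunit proteins made up 42 of the genes, and the other 7 were the paralogs or relatives Rpl3l, Rpl7l1, Rpl22l1, Rpl39l, Rps4l and Rps27l and the pseudogene Rps15a-ps6. Another 102 probe sets name several genes of which at least 1 is Rpl or Rps, often with pseudogenes, and were left out. Rpl3, Rpl5, Rpl10 and Rplp1 are among the genes with no single-gene probe set here.

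The study asked what deletion of HDAC11 does to gene expression in Tregs. CD4+CD25+ cells were isolated from mice labelled fl-HDAC11/Foxp3cre (HDAC11-/-, 3 arrays) and from wild type C57BL6 mice (WT, 3 arrays). The floxed Hdac11 gene is cut by a Cre expressed from Foxp3, so deletion is restricted to cells that express or have expressed Foxp3, and the WT label names no Cre. The labels give neither treatment, age nor sex for these arrays, and do not say whether each array is a separate mouse, so each p-value reflects only the spread between the arrays, which may be technical.

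Cytosolic ribosomes join a small subunit, which decodes the mRNA, to a large subunit, which forms the peptide bonds. Most subunit proteins are made from very abundant mRNAs that start with a C and a run of pyrimidines, the terminal oligopyrimidine (TOP) motif, through which the mTOR pathway adjusts their translation when T cells are activated. Array signals of such abundant mRNAs can lie close to the highest signal that the scanner and the probes give.

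Values are log2 levels after robust multiarray averaging (RMA), as deposited. Fold changes are HDAC11-/- over WT on that log2 scale, with the standard error and the p-value of limma adjusted by Benjamini-Hochberg over all probe sets tested. A probe set was called when its adjusted p was under 0.05 and its difference 1.5-fold or more. The signal of the bacterial control probe sets, whose targets no mouse cell makes, served as background, and the highest of them lay between 5.06 and 5.28 on the HDAC11-/- arrays and between 5.27 and 5.48 on the WT arrays. Where all arrays of 1 genotype lay at or below that control, the text gives the levels, the adjusted p and a bound on the fold, and no fold where both genotypes did.

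The 6 arrays correlated at 0.997 or more within a genotype and at 0.985 to 0.988 between genotypes. Neither Hdac11 probe set told the labelled groups apart, with log2 fold changes of -0.12 (adjusted p = 0.222, limma) and -0.10 (adjusted p = 0.532). No source used here says whether these probes lie in the deleted exons, so Hdac11 does not check the labels, and the groups are named by their labels throughout. The T cell genes Cd3d, Cd3e and Cd3g gave levels between 12.24 and 13.10 on all arrays, but the single Foxp3 probe set lay at or below the bacterial controls on all 6. Of 8 T cell markers none was called. At the adjusted p alone 1 was higher (Ctla4, log2 fold change 0.50) and 2 were lower (Cd4 at -0.32 and Ikzf2 at -0.35), where the background over all genes was 22.9% and 23.2%. Markers of other cells and indices of RNA quality also moved with the genotype. The mean level of 6 B cell markers was 5.50 to 5.52 on HDAC11-/- arrays and 6.17 to 6.26 on WT arrays, with Pax5 and Fcer2a at or below the controls on every array and Cr2 on 5 of the 6. The mean of 6 dendritic cell markers was 7.91 to 7.93 on HDAC11-/- arrays and 8.74 to 8.86 on WT arrays, all above the controls. The mean of 6 CD8 T and NK cell markers was 6.86 to 6.89 on HDAC11-/- arrays and 7.24 to 7.36 on WT arrays. Of these 2 (Ncr1 and Fcer1g) were called lower (33.3%, background over all genes 3.72%), and Cd8a lay at or below the controls on 2 WT arrays. Cd8b1 of this list went the other way, with a log2 fold change of 0.42 (adjusted p = 0.00671, limma). The mean of 8 monocyte and macrophage markers went the other way, at 5.25 to 5.45 on HDAC11-/- arrays and 4.86 to 5.02 on WT arrays. Of these 3 (Vcam1, C1qa and C1qb) were called higher (37.5%, background over all genes 3.46%). Csf1r (-0.02, adjusted p = 0.867, limma) and Adgre1 were not higher. C1qa had 5.37, 5.80 and 5.64 on HDAC11-/- arrays and 5.04, 4.85 and 4.82 on WT arrays (adjusted p = 0.00356). All its WT values lay within the background, so it was at least 1.16-fold higher. Adgre1, C1qb and Itgam lay at or below the controls on every array. Of 14 proliferation genes, 13 were called higher (92.9%, background over all genes 3.46%) and 1, Tyms, lower (7.14%, background 3.72%). Tyms had 5.06, 4.84 and 4.64 on HDAC11-/- arrays and 5.98, 5.60 and 5.57 on WT arrays (adjusted p = 0.00317, limma). All its HDAC11-/- values lay within the background, so it was at least 1.49-fold lower, a bound under the threshold of 1.5-fold. All WT values of Aurkb lay within the background, so it was at least 4.23-fold higher (adjusted p = 4.57e-06). The median fold change of the 14 genes was 1.87 (log2). The excess of the 3' over the 5' probe set of Actb was 0.42 to 0.44 on HDAC11-/- arrays and 0.47 to 0.54 on WT arrays. The part of these differences in the results below was not tested.

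The starts of the transcripts of the genes on which the results turn are shown here because the TOP motif is known for most genes of subunit proteins and for some other translation genes. Each window holds 10 bases before and 20 bases from the start annotated by RefSeq on GRCm38.p6, read along the transcribed strand, with capitals marking a C followed by at least 4 C or T bases that begins within 10 bases of the start. Rps24 and Rps27l each have a second annotated start without such a run, and the start with it is shown.
Rps24 (chr14:24490668-24490697, + strand): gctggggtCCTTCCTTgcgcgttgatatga
Rps10 (chr17:27635225-27635254, - strand): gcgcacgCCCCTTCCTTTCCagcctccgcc
Rpl12 (chr2:32961702-32961731, + strand): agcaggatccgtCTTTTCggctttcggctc
Rpl27a (chr7:109519185-109519214, + strand): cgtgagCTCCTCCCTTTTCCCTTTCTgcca
Rpl35 (chr2:39005112-39005141, - strand): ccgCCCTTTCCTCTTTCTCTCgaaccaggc
Rps9 (chr7:3704031-3704060, + strand): cttgtCTCTCTTTgtctcgggcctgagttc
Rpl14 (chr9:120571507-120571536, + strand): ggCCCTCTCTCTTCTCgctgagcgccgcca
Rps6 (chr4:86857348-86857377, - strand): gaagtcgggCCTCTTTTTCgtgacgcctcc
Rpl22l1 (chr3:28805498-28805527, + strand): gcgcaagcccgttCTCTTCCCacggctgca
Rps27l (chr9:66946076-66946105, + strand): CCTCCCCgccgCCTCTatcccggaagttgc
Rps25 (chr9:44407704-44407733, + strand): ccgacatcttagcgaggctgctgtggtcta
Rplp0 (chr5:115559457-115559486, + strand): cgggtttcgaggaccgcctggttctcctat
The run was found at 1 or more annotated starts of 27 of the 42 member genes in the promoter table (64.3%), against 9007 of all 27025 genes in the table (33.3%) and 3527 of the 9882 genes that were also measured on the arrays (35.7%). Counted by start, it stood at 28 of 50 member starts (56.0%) and 9768 of 32851 starts in all (29.7%). The search covered only the transcribed strand, and a match is a description of letters, not a mapped transcript start. Rps25 and Rplp0, shown last, hold no such run that begins within 10 bases of the start, though the window of Rplp0 holds 1 further on. Nothing follows from this about how they are controlled. The genes that fell and those that rose both included starts with the run, as the windows of Rpl12 and Rpl14 show.

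Read by their brightest probe sets, most of which lay near the top of the signal range, most ribosomal protein genes differed little between the genotypes. With the brightest probe set (highest mean over the arrays) standing for each gene, the median log2 fold change of the 49 genes was 0.05, with quartiles at -0.02 and 0.13. Within 0.2 of zero lay 36 of the 49. These were all 16 large and all 17 small subunit genes with a mean level of 13 or more. Below 13 they were 3 of 10 large and none of 6 small subunit genes. Over all genes the median was -0.04, with quartiles at -0.21 and 0.16. By this representation 2 member genes were called higher, Rpl14 and Rps4l, where the background over all genes was 3.46%, and 3 were called lower, Rpl12, Rpl27a and Rps15a-ps6, where it was 3.72%. At the adjusted p alone 11 of 49 were higher (22.4%, background 22.9%) and 5 were lower (10.2%, background 23.2%). The direction of the small median depended on the scaling, at -0.117 with arrays scaled on reference genes, -0.014 after cyclic loess and -0.001 after quantile normalization.

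Counted by probe set, 3 of the 101 members were called higher (2.97%, background 3.87%) and 7 lower (6.93%, background 5.03%). At the adjusted p alone 23 were higher (22.8%, background 23.2%) and 13 lower (12.9%, background 22.4%). The 3 HDAC11-/- values and the 3 WT values did not overlap in 66 of the 101 probe sets, against a background of 56.7%.

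As deposited, the large and small subunits had nearly the same median. The median log2 fold change was 0.05 for the 26 large subunit genes and 0.05 for the 23 small subunit genes, and the difference between these medians was -0.003. With probe sets without a suffix in their name alone, the medians were -0.015 (large) and -0.133 (small), a difference of 0.118. Of the large subunit genes 1 was called higher (3.85%) and 2 lower (7.69%), and of the small subunit genes 1 was called higher and 1 lower (4.35% each). The background over all genes was 3.46% higher and 3.72% lower. At the adjusted p alone 7 large subunit genes were higher (26.9%) and 3 lower (11.5%), and 4 small subunit genes were higher (17.4%) and 2 lower (8.7%). Here the background was 22.9% higher and 23.2% lower. The large subunit mean was -0.02, opposite in sign to its median, with Rpl12 and Rpl27a far below the rest.

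The median level of the large subunit genes was 13.67, 13.61 and 13.62 on the HDAC11-/- arrays and 13.52, 13.55 and 13.51 on the WT arrays. That of the small subunit genes was 14, 13.98 and 13.97 on the HDAC11-/- arrays and 13.90, 13.92 and 13.93 on the WT arrays. Each subunit's HDAC11-/- arrays thus lay above its WT arrays as deposited, while the median fold change of both subunits was below zero after scaling on reference genes (-0.119 for large and -0.116 for small) and after cyclic loess (-0.015 and -0.012), and that of the small subunit after quantile normalization (-0.016). The large subunit genes minus the small subunit genes gave -0.33, -0.37 and -0.35 on the HDAC11-/- arrays and -0.38, -0.37 and -0.43 on the WT arrays, ranges that touch at -0.37. With the 7 paralogs, relatives and pseudogene left out, 1 of 22 large subunit genes was called higher and 2 lower, and none of 20 small subunit genes was called, with 2 of the 20 higher and 1 lower at the adjusted p alone by limma and medians of 0.04 (large) and 0.05 (small).

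**Figure D1:**
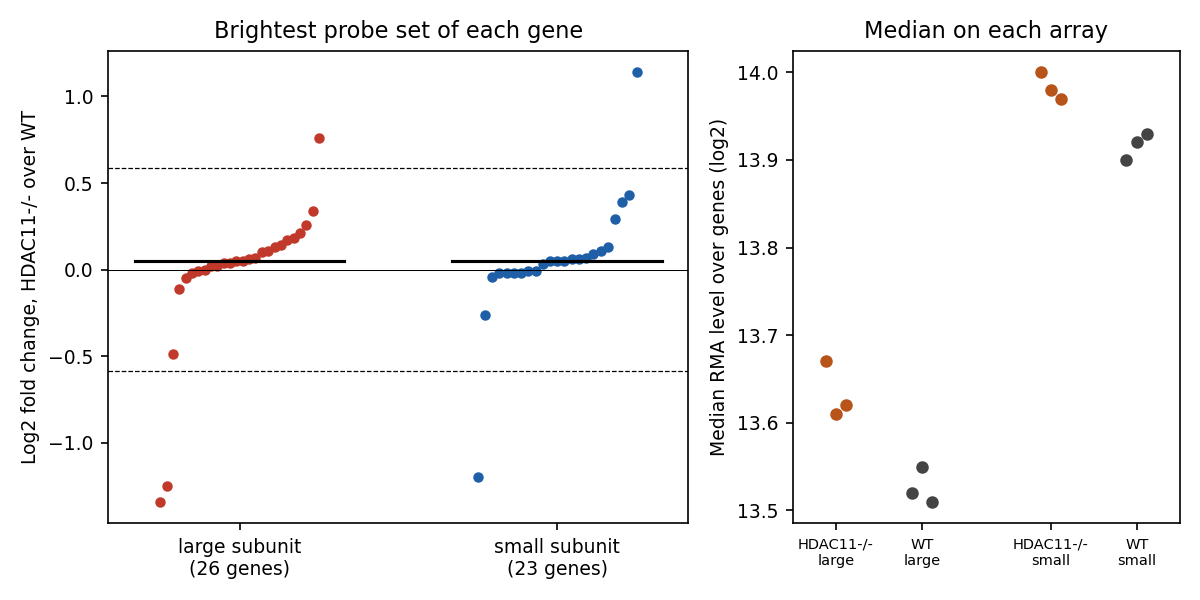
Left, log2 fold change (HDAC11-/- over WT) of each large and small subunit gene by its brightest probe set, sorted, with the median as a bar at 0.05 in both and dashed lines at 1.5-fold. Right, the median RMA level (log2) of the genes of each subunit on each of the 3 HDAC11-/- and 3 WT arrays, 13.61 to 13.67 against 13.51 to 13.55 for the large and 13.97 to 14 against 13.90 to 13.93 for the small subunit.

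Most members lay near the top of the signal range. The highest probe set of any array had a level of 14.73 to 14.75 on the HDAC11-/- arrays and 14.67 to 14.68 on the WT arrays. The highest member, Rplp2 or Rps29, lay 0.21 to 0.26 below that value on the HDAC11-/- arrays and 0.17 to 0.21 below it on the WT arrays. At or above a level of 13 there were 231 to 236 probe sets on each HDAC11-/- array, of which 57 to 58 were members, and 224 to 234 on each WT array, of which 54 to 56 were members.

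In that range no member differed by much. Of the 56 member probe sets with a mean at or above 13, none was called, and 54 lay within 0.2 of zero, with fold changes from -0.08 to 0.35 and a median of 0.04. At the adjusted p alone by limma 6 were higher (10.7%) and none lower. Calls were rare at this level in any case. Of the 174 other probe sets at or above 13, 1 was called higher and 1 lower (0.575% each). At the adjusted p alone 40 of these were higher (23.0%) and 17 lower (9.77%). At or above 14 none of 21 members passed even the adjusted p, and their fold changes lay between -0.07 and 0.11. Of 56 other probe sets there, 9 were higher (16.1%) and 1 lower (1.79%) at the adjusted p alone. The spread between arrays was as small, with a median SD of 0.021 in each genotype over the 56 probe sets. The smallest member fold change that passed the adjusted p anywhere was 0.13.

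The ribosomal stalk proteins, which recruit translation factors to the large subunit, show these values. Rplp2 had levels of 14.52, 14.48 and 14.46 in HDAC11-/- Tregs and 14.47, 14.44 and 14.44 in WT Tregs (log2 fold change 0.04 ± 0.04 SE, adjusted p = 0.514, limma). Rplp0 had 14.12, 14.08 and 14.08 in HDAC11-/- Tregs and 14.10, 14.13 and 14.10 in WT Tregs (-0.01 ± 0.04, adjusted p = 0.793). For both genes the values of the genotypes overlapped. Rps29, a small protein of the head of the small subunit, had 14.46, 14.47 and 14.48 in HDAC11-/- Tregs and 14.49, 14.50 and 14.47 in WT Tregs (-0.02 ± 0.04, adjusted p = 0.737). The large subunit gene Rpl37a had 14.39 on each HDAC11-/- array and 14.37, 14.38 and 14.35 on the WT arrays (0.02 ± 0.04, adjusted p = 0.704).

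Probe sets other than members could differ in the same range. Of the 108 probe sets at or above 13 that name no Rpl or Rps gene, 1 was called higher and 1 lower, 29 were higher and 17 lower at the adjusted p alone, and fold changes ran from -1.19 to 0.75, with 78 within 0.2 of zero. Control probe sets at these levels also differed. The B2 repeat control had 13.92, 13.86 and 13.87 on the HDAC11-/- arrays and 14.38, 14.38 and 14.31 on the WT arrays, a difference of -0.48. Of the 3 cre spike-in probe sets in this range, 1 differed by -0.32 and the others by -0.55 and -0.58. Their mean was 13.77 to 13.80 on the HDAC11-/- arrays and 14.26 to 14.29 on the WT arrays. Spike-ins are added and not made by the cells, so the arrays of the 2 genotypes also differed in a signal that is not cellular. The part of this in the member values was not tested.

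**Figure D2:**
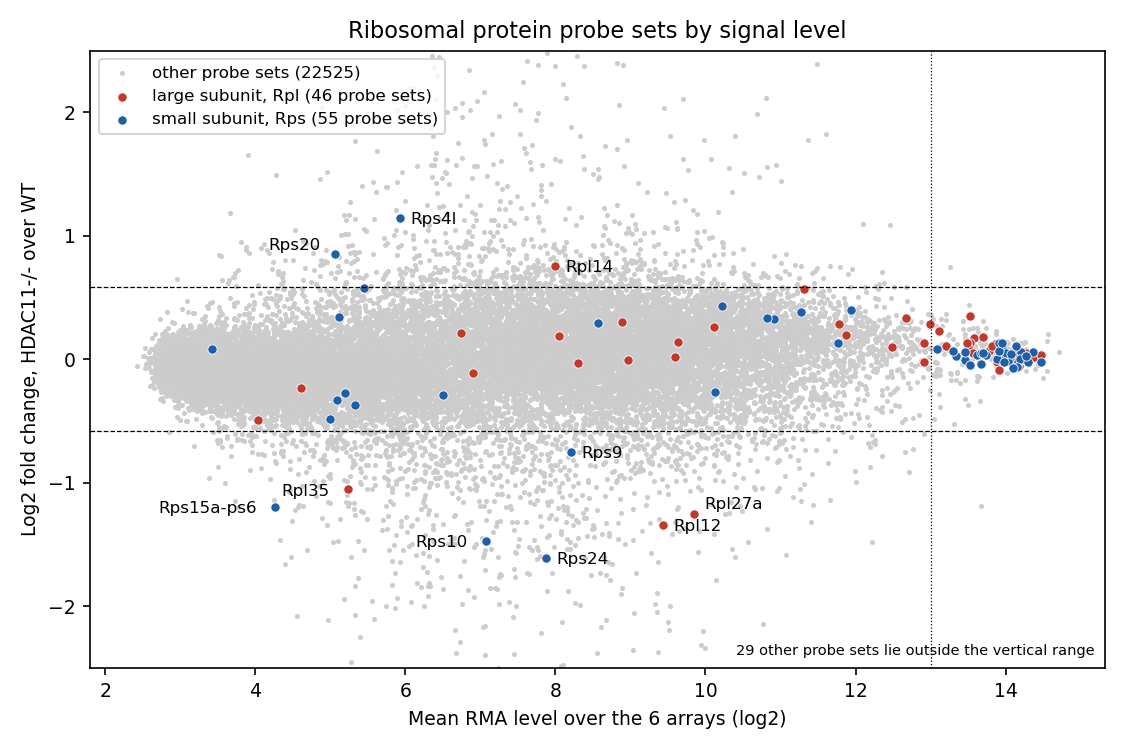
Log2 fold change (HDAC11-/- over WT) against the mean RMA level (log2) over the 6 arrays for all 22626 probe sets, with large and small subunit members in colour, dashed lines at 1.5-fold and a dotted line at a level of 13. The 56 members at or above 13 lie between -0.08 and 0.35, and all 10 called members lie below 10, outside the dashed lines and labelled by gene.

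Below that range the members spread. Of 16 members with a mean level from 10 to 13, none was called, but 10 were higher and 1 lower at the adjusted p alone, with a median of 0.29. The 2796 other probe sets of that range had 1214 higher and 625 lower and a median of 0.10. Of 13 members from 7 to 10, 1 was called higher and 5 lower (38.5%), while 474 (6.13%) of 7727 other probe sets of that range were called higher and 522 (6.76%) lower. Of 16 members below 7, 2 were called higher and 2 lower (12.5% each), while 310 (2.62%) of 11828 others were called higher and 486 (4.11%) lower. The 4 members whose arrays of both genotypes all lay at or below the controls are among these 16.

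The 7 lower calls were all from probe sets without a suffix in their name, the form used for probes that match a single transcript. There were 31 such members, of which 7 (22.6%) were called lower and 2 (6.45%) higher. Other probe sets without a suffix were called lower in 829 of 15574 cases (5.32%) and higher in 495 (3.18%). The 40 members with the suffix x, which marks probes that may cross-hybridise, held no call. Of 1472 other probe sets with that suffix, 84 (5.71%) were called higher and 57 (3.87%) lower. The 28 members with the suffix a, which marks probes shared by transcripts of 1 gene, held 1 call, which was higher. Of 4012 others with it, 214 (5.33%) were called higher and 180 (4.49%) lower. Suffix went with level. In HDAC11-/- Tregs the median member level was 7.83 without a suffix, 13.53 with x and 13.87 with a. The part of level in these counts was not tested.

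Among the large subunit genes, Rpl12 and Rpl27a fell. Rpl12 encodes a protein at the base of the stalk. Its single-gene probe set 1435655_at had levels of 8.77, 8.77 and 8.76 in HDAC11-/- Tregs and 10.05, 10.08 and 10.18 in WT Tregs (log2 fold change -1.34 ± 0.05 SE, 2.53-fold lower, adjusted p = 9.41e-06, limma). Each HDAC11-/- array lay more than 1 log2 unit below each WT array. Another 2 probe sets name Rpl12 together with further genes and gave fold changes of 0.00 and 0.05 at levels near the top. They cannot be assigned to 1 gene.

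Rpl27a, a protein of the large subunit, had levels of 9.17, 9.21 and 9.31 in HDAC11-/- Tregs and 10.49, 10.33 and 10.61 in WT Tregs by its brighter probe set 1437729_at (-1.25 ± 0.08, 2.38-fold lower, adjusted p = 8.68e-05, limma). The groups were again apart by more than 1 log2 unit. Its other probe set lay at or below the controls on every array, and a probe set shared by Rpl27a with other genes gave 0.01.

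Rpl35 sits at the exit of the peptide tunnel. Its dim probe set 1454833_at had 4.70, 4.85 and 4.58 in HDAC11-/- Tregs and 5.78, 5.59 and 5.92 in WT Tregs (adjusted p = 0.000417, limma). All HDAC11-/- values lay within the background, so the probe set was at least 1.54-fold lower. Its brightest probe set 1434231_x_at had 13.54, 13.55 and 13.55 in HDAC11-/- Tregs and 13.45, 13.44 and 13.46 in WT Tregs (0.10 ± 0.04, adjusted p = 0.0941), and the other 4 lay between 0.11 and 0.29, so that 1 probe set stood against 5 of the same gene.

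Rpl14, a large subunit protein, rose. Its probe set 1422128_at had 8.38, 8.31 and 8.42 in HDAC11-/- Tregs and 7.61, 7.56 and 7.67 in WT Tregs (0.76 ± 0.05, 1.69-fold higher, adjusted p = 0.00011, limma). The groups did not overlap. The 5 probe sets that name Rpl14 with further genes had fold changes from 0.08 to 0.34.

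Among the small subunit genes, the largest falls were those of single dim probe sets of Rps24 and Rps10. Rps24 encodes a small subunit protein whose human counterpart is mutated in Diamond-Blackfan anaemia. Its probe set 1455195_at had 7.19, 7.0 and 7.01 in HDAC11-/- Tregs and 8.73, 8.67 and 8.62 in WT Tregs (-1.61 ± 0.07, 3.04-fold lower, adjusted p = 1.42e-05, limma). Its brightest probe set 1436064_x_at had 14.17, 14.13 and 14.14 in HDAC11-/- Tregs and 14.16, 14.21 and 14.14 in WT Tregs (-0.02 ± 0.04, adjusted p = 0.696). The first pair of groups was far apart and the second overlapped, and the other 3 probe sets of the gene above 13 lay between 0.03 and 0.08.

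Rps10 encodes a protein of the head of the small subunit. Its probe set 1436384_at had 6.34, 6.35 and 6.33 in HDAC11-/- Tregs and 7.82, 7.79 and 7.82 in WT Tregs (-1.47 ± 0.04, 2.77-fold lower, adjusted p = 3.56e-06, limma). Its brightest probe set 1438723_a_at had 13.93, 13.96 and 13.95 in HDAC11-/- Tregs and 13.94, 14 and 13.95 in WT Tregs (-0.01 ± 0.04, adjusted p = 0.803). Of the 6 probe sets of Rps10 only the dimmest passed the adjusted p.

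Rps9, a protein of the small subunit body that contributes to decoding accuracy, differed between its 3 probe sets. Probe set 1426958_at had 7.84, 7.78 and 7.86 in HDAC11-/- Tregs and 8.56, 8.65 and 8.53 in WT Tregs (-0.75 ± 0.05, 1.68-fold lower, adjusted p = 0.000104, limma). At a higher level, 1434624_x_at had 12.04, 12.09 and 12.27 in HDAC11-/- Tregs and 11.63, 11.86 and 11.71 in WT Tregs (0.40 ± 0.09, adjusted p = 0.00907). The brightest, 1433689_s_at, had 13.73, 13.74 and 13.71 in HDAC11-/- Tregs and 13.70, 13.67 and 13.65 in WT Tregs (0.05 ± 0.04, adjusted p = 0.339). One probe set thus passed the adjusted p downwards and another upwards.

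Rps20, which lies in the head of the small subunit, was called higher by its dimmest probe set 1450417_a_at, with 5.41, 5.57 and 5.50 in HDAC11-/- Tregs and 4.56, 4.54 and 4.82 in WT Tregs (adjusted p = 0.000511, limma). All WT values lay within the background, so the probe set was at least 1.07-fold higher. The other dim probe set of Rps20, 1421935_at, had 5.77, 5.82 and 5.64 in HDAC11-/- Tregs and 4.88, 5.28 and 5.33 in WT Tregs (0.58 ± 0.12, adjusted p = 0.00905). It was not called, and only 1 of its WT values lay above the controls. The brightest probe set of Rps20 gave -0.02 ± 0.05 (adjusted p = 0.775). Rps18, also of the head, passed the adjusted p in both directions, with 0.13 for 1 of 3 probe sets above 13 (adjusted p = 0.0483, limma) and -0.29, -0.37 and -0.27 for 3 probe sets below 7, the last 2 of which lay partly within the background. The value of 0.13 passed in 1 of the 11 alternatives that rescale, block or leave out arrays, and the -0.29 in all 11.

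**Figure D3:**
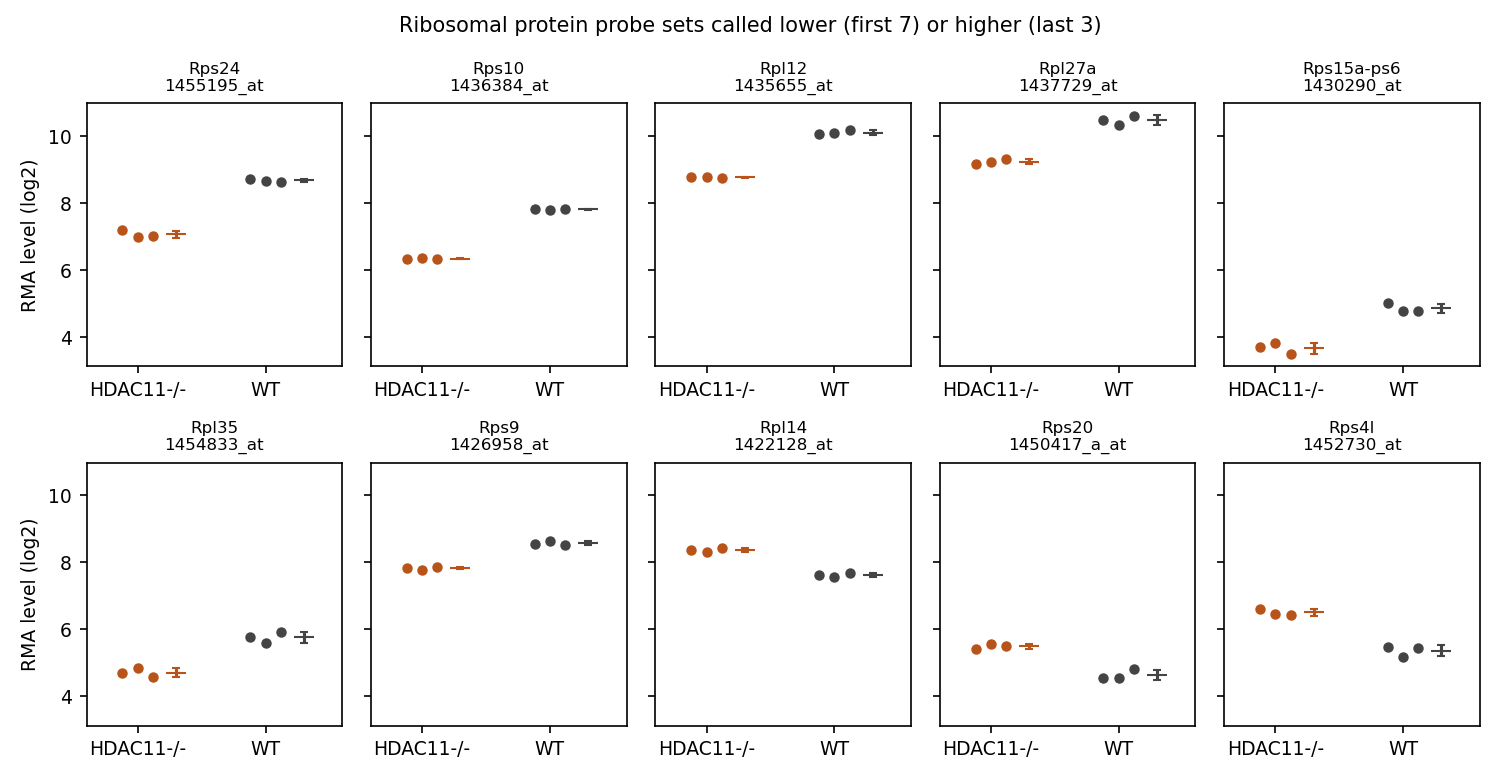
RMA levels (log2) of the 10 called member probe sets on the 3 HDAC11-/- and 3 WT arrays (points), with mean and SD beside them. In the first 7 panels the HDAC11-/- arrays lie below the WT arrays and in the last 3 above them, with no overlap in any panel.

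Probe sets of 1 gene often disagreed where 1 of them was called. Of the 23 member genes with more than 1 probe set, 6 had a called and an uncalled one. With probe sets within the background set at their bound or left out, the fold changes of 3 genes (Rps24, Rps10 and Rps9) spanned 1 log2 unit or more, and those of Rpl35 spanned 0.91. In 3 genes (Rpl35, Rps9 and Rps18) probe sets passed the adjusted p in both directions. Near the top the probe sets of a gene lay closer together. In the 14 genes with at least 2 probe sets at or above 13 the largest span among these was 0.30, in Rpl7.

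The same genes read at other levels differed more than near the top. In 10 genes with a probe set at or above 13 and another below 10, the dimmer one was called lower in 4 (Rps24, Rps10, Rpl35 and Rps9) and higher in 1 (Rps20). In 5 genes with a probe set at or above 13 and another from 10 to 13, every value of the intermediate range exceeded every value near the top in 4. Rpl13a showed the widest such gap, with 11.63, 11.58 and 11.58 in HDAC11-/- Tregs and 11.03, 11.05 and 11.02 in WT Tregs by 1433928_a_at (0.57 ± 0.04, 1.48-fold, adjusted p = 0.000144, limma) and -0.05 ± 0.04 by its brightest probe set (adjusted p = 0.326). These groupings by level were chosen with the values known and were not tested. A compressed response near the top and a difference in what the probes bind cannot be told apart with 1 value per probe set.

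**Figure D4:**
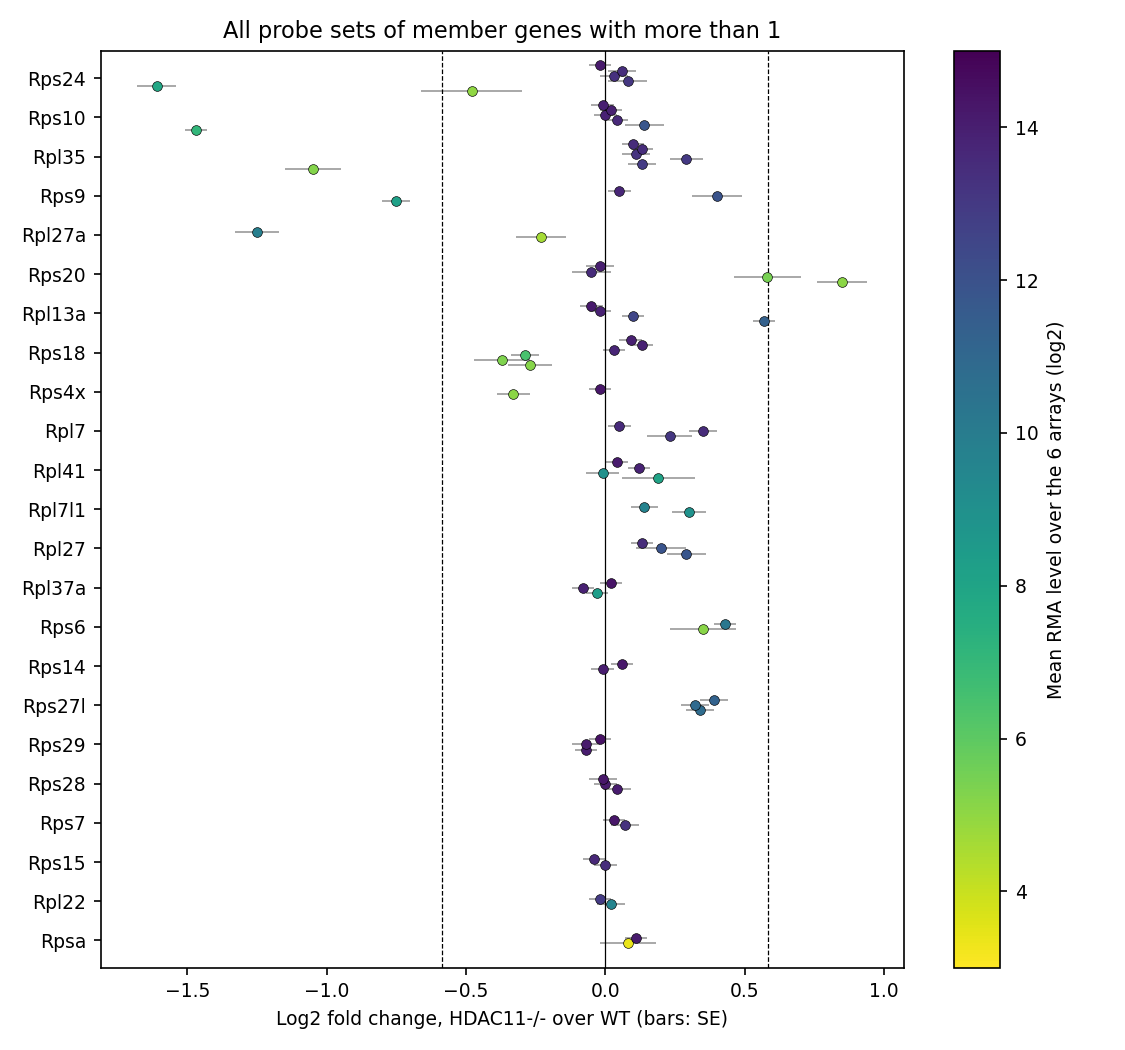
Log2 fold change (HDAC11-/- over WT, with SE bars) of every probe set of the 23 member genes with more than 1, coloured by mean RMA level (log2), with dashed lines at 1.5-fold and genes ordered by their span from the widest at the top. The darkest points, near the top of the signal range, cluster within 0.35 of zero, and the outlying points of Rps24, Rps10, Rpl35, Rps9 and Rps20 are dim, with 1 genotype within the background for Rpl35 and for the dimmest of Rps20.

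Values of paralogs are given beside those of their partners, and no difference within a pair was tested. Rpl22l1, the paralog of Rpl22, had 12.84, 12.81 and 12.88 in HDAC11-/- Tregs and 12.47, 12.57 and 12.47 in WT Tregs (0.34 ± 0.05, adjusted p = 0.00215, limma). Rpl22, which binds RNA on the large subunit, had 12.89, 12.89 and 12.90 in HDAC11-/- Tregs and 12.92, 12.88 and 12.95 in WT Tregs (-0.02 ± 0.04, adjusted p = 0.732). The values of Rpl22l1 did not overlap, and those of Rpl22 did. Both lie close to the top of the range, below 13.

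All 3 probe sets of Rps27l, a p53-induced paralog of Rps27, passed the adjusted p, with fold changes of 0.39, 0.32 and 0.34. The brightest had 11.52, 11.42 and 11.46 in HDAC11-/- Tregs and 11.06, 11.14 and 11.04 in WT Tregs (0.39 ± 0.05, adjusted p = 0.00142, limma). Rps27 itself had 8.70, 8.74 and 8.72 in HDAC11-/- Tregs and 8.36, 8.53 and 8.39 in WT Tregs (0.29 ± 0.06, adjusted p = 0.00703). Both genes were higher on every HDAC11-/- array than on any WT array. With arrays scaled on reference genes Rps27 gave 0.13 (adjusted p = 0.0811, limma), and Rps27l passed under all 11 alternatives.

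Rps4l rose most of all members. Its probe set 1452730_at had 6.61, 6.46 and 6.44 in HDAC11-/- Tregs and 5.46, 5.17 and 5.45 in WT Tregs (1.14 ± 0.09, 2.21-fold higher, adjusted p = 0.000214, limma), with 1 of the WT values at or below the controls. Rps4x, the gene that encodes the standard protein, gave -0.02 ± 0.04 by its brightest probe set (adjusted p = 0.705). Rpl7l1, which works in ribosome assembly, had fold changes of 0.14 (adjusted p = 0.0499) and 0.30 (adjusted p = 0.00561), which passed in 1 and 10 of the 11 alternatives, and Rpl7 had 0.05, 0.35 and 0.23, of which 1 probe set passed (0.35, adjusted p = 0.00148). Rpl39l, expressed mainly in testis, gave 0.21 ± 0.10 (adjusted p = 0.12), and Rpl39, of the tunnel, -0.11 ± 0.07 (adjusted p = 0.198). The muscle paralog Rpl3l and the pseudogene Rps15a-ps6 lay at or below the controls on all 6 arrays, so the lower call of Rps15a-ps6 is given no fold.

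Some canonical genes passed the adjusted p with a difference under 1.5-fold. Rps6, the substrate of S6 kinases that is phosphorylated on mTOR activation, had 10.43, 10.40 and 10.46 in HDAC11-/- Tregs and 10, 10.03 and 9.97 in WT Tregs by 1416142_at (0.43 ± 0.04, adjusted p = 0.000517, limma). Rpl11, which with Rpl5 and 5S RNA forms the particle that binds Mdm2, had 13.72, 13.64 and 13.63 in HDAC11-/- Tregs and 13.48, 13.54 and 13.45 in WT Tregs (0.17 ± 0.05, adjusted p = 0.0301). Rpl8, a protein of the large subunit core, had 13.82, 13.80 and 13.75 in HDAC11-/- Tregs and 13.58, 13.61 and 13.62 in WT Tregs (0.18 ± 0.04, adjusted p = 0.015). None of the 3 overlapped between the genotypes. Rps6 passed under all 11 alternatives, but Rpl11 under 2, with 0.01 on the scale of reference genes (adjusted p = 0.928, limma), and Rpl8 under 6, with 0.01 on that scale (adjusted p = 0.827). Rps25, a small subunit protein needed by several viral internal ribosome entry sites, had 10, 9.96 and 10.03 in HDAC11-/- Tregs and 10.35, 10.17 and 10.25 in WT Tregs (-0.26 ± 0.06, adjusted p = 0.0113), the single canonical gene to fall at the adjusted p by its brightest probe set besides Rpl12 and Rpl27a.

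Other genes of the pathway were taken from fixed lists. Fau, a small subunit protein under another name, gave 0.01 ± 0.04 (adjusted p = 0.798, limma). Of 18 translation genes known to start with a TOP motif but encoding no ribosomal protein, none was called, 9 were higher and 1 lower at the adjusted p alone, and the median was 0.14 (background over all genes 22.9% higher and 23.2% lower). That median was -0.03 with reference genes, 0.06 after cyclic loess and 0.07 after quantile normalization. Nap1l1, a histone chaperone, had 0.47 (adjusted p = 0.000665), and the elongation factors Eef1a1 and Eef2 had -0.05 (adjusted p = 0.348) and 0.00 (adjusted p = 0.992). Of 7 chaperones of ribosomal proteins and assembly factors of the 5S particle, none was called, and 4 were higher at the adjusted p alone (57.1%, background 22.9%). Their median of 0.23 was 0.07 with reference genes. The factors Rrs1 and Rpf2, which bring the 5S particle to the large subunit, had 0.50 (adjusted p = 0.000838) and 0.52 (adjusted p = 0.00676), and Mdm2, which that particle binds, had 0.17 (adjusted p = 0.154).

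Regulators of TOP mRNA translation moved in both directions. Of 13 measured, Myc was called higher (7.69%) and Tia1 and Tial1 lower (15.4%), where the background over all genes was 3.46% and 3.72%. At the adjusted p alone 4 were higher (30.8%) and 6 lower (46.2%), where the background was 22.9% and 23.2%. Myc, a transcription factor that drives ribosome biogenesis, had 10.75, 10.73 and 10.75 in HDAC11-/- Tregs and 10.07, 9.98 and 10.03 in WT Tregs (0.72 ± 0.05, adjusted p = 7.96e-05, limma). Tia1, an RNA-binding protein that can repress TOP mRNAs under stress, had 9.38, 9.28 and 9.28 in HDAC11-/- Tregs and 10.17, 10.18 and 10.15 in WT Tregs (-0.85 ± 0.05, adjusted p = 4.87e-05), and its relative Tial1 gave -0.71 ± 0.05 (adjusted p = 0.000122). Larp1, which binds the TOP motif itself, gave 0.11 ± 0.05 (adjusted p = 0.105). Mtor gave -0.22 ± 0.05 (adjusted p = 0.00981).

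The mitochondrial ribosomal proteins, which build the separate ribosome of mitochondria, are measured at lower signals. Of 74 genes, 2 were called higher (2.7%, background over all genes 3.46%) and none lower (background 3.72%). The 2 were Mrpl11 at 0.61 (adjusted p = 0.000173, limma) and Mrpl42 at 0.59 (adjusted p = 0.000168). At the adjusted p alone 55 were higher (74.3%, background 22.9%) and 4 lower (5.41%, background 23.2%). The median log2 fold change was 0.28. That median was above zero under each of the 4 other scalings, from 0.11 with reference genes to 0.30 with the bacterial controls. The 49 cytosolic genes had a median of 0.05, and no test set the lists against each other.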

How the data were processed

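RNA of 3 HDAC11-/- and 3 WT Treg samples was amplified, labelled with biotin and hybridised to Affymetrix Mouse430a arrays. The authors normalized the arrays by RMA in MAYDAY, and their deposited table holds log2 values, 1 for each probe set on each array. Raw probe values and detection calls were not used here. No source used here states which probe definitions RMA used. No column of per-sample values was left unused, and the table holds 22671 probe sets, of which 45 controls were left out of the tests. The platform annotation gave 20380 of the rest 1 symbol, 691 several and 1555 none here, and all 49 member genes matched RefSeq.

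All probe sets were fitted with lmFit and eBayes in limma 3.58.1 (R 4.3.3), two-sided, with genotype as the only term and all 6 arrays. The call thresholds follow the methods. RMA pulls probe sets towards a common distribution, so an equal shift of most genes would not be seen, and saturated probes compress differences. The number of arrays limits the precision. For a bound, each array's value was set to the higher of its own value and the highest of 27 bacterial control probe sets. The gene was represented by its probe set of highest mean.

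Genes named are members with a call, the 6 largest rises and falls past the adjusted p, genes whose probe sets disagree, paralog pairs, stalk and 5S particle genes and the 3 brightest and dimmest. Rpl13a, Rps4x, Rpl8 and the uncalled genes of the lists were named after their values were seen. The members, lists and tests were chosen with earlier results of these data known. The fit was tested on simulated data for this comparison with 22626 probe sets. At the adjusted p of limma alone, without the fold threshold, 31 of 50 probe sets changed 1.5-fold passed, 47 of 50 changed 2-fold and 49 of 50 changed 4-fold. Alternatives were 4 scalings, SAM over all 20 labelings, a trended robust prior, array weights, a replicate block, filters by level, suffix and membership, the median or dimmest probe set for a gene, and fits without 1 array. Probe sets naming several genes were added after seeing the data. Figures used matplotlib 3.10.9.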

Additional observations from a re-analysis of the deposited data

How the results depend on the processing

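The counts of called members kept their size in nearly every setting. Called higher moved between 2 and 5 and called lower between 5 and 9 over all settings, and 5 higher, with the bacterial controls as the scale, was the only count beyond 1.5 times the deposited 3. SAM called the same 10 members. At the adjusted p alone, the scale of reference genes gave 12 higher and 44 lower, against 23 and 13 as deposited, the suffix-free probe sets gave 6 higher, the trended robust prior gave 43 higher, adding the probe sets of several genes (chosen after seeing the data) gave 50 higher, and probe sets above the bacterial controls gave 8 lower.

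The scale of reference genes moved the median of all probe sets to -0.202, against -0.034 as deposited. For all member genes, large subunit genes, small subunit genes and members at or above 13, the medians were -0.117, -0.119, -0.116 and -0.127 on that scale and -0.014, -0.015, -0.012 and -0.021 after cyclic loess. Quantile normalization gave -0.001, 0.008, -0.016 and -0.006, with a large minus small difference of 0.024. The bacterial scale gave 0.076 for all member genes, 0.076 for the small subunit and 0.065 at or above 13. Suffix-free probe sets gave -0.015, -0.015, -0.133 and 0.018, with a large minus small difference of 0.118. Probe sets below 13 gave 0.119, 0.102 and 0.135 for the 3 gene groups and -0.033 for the difference. The cause of these moves was not tested.

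For 31 named probe sets, 341 values were recomputed. The 10 called ones kept their sign and passed the adjusted p throughout. Of the 341 values, 20 had the opposite sign, in 12 uncalled probe sets, and of the 18 past the adjusted p, 14 stayed past it throughout, the others being Rpl11, Rpl7l1, Rps27 and Rpl3l. Rpl3l met the call thresholds on the scale of reference genes and without WT replicate 1, although all its arrays lay at or below the controls. The replicate block gave 3 members called higher and 7 lower, the same 10 as without it. Same-numbered arrays correlated at 0.23, -0.019 and 0.163 in their deviations. The arrays of replicate 1 correlated best with each other, and so did those of replicate 3. Those of replicate 2 did not, with 0.06 between HDAC11-/- replicate 2 and WT replicate 3. As the replicates differed in this, the correlations do not settle whether the numbers pair the samples.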

Other observations

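The 102 probe sets that name several genes, at least 1 of them Rpl or Rps, were not members. Among them 1 was called higher and 2 lower, 27 were higher and 5 lower at the adjusted p alone by limma, and the median log2 fold change was 0.08, against 0.05 for the 101 member probe sets.

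The control probe set for 18S rRNA, the RNA of the small subunit, had 11.39, 11.26 and 11.16 on the HDAC11-/- arrays and 11.16, 11.11 and 10.93 on the WT arrays. The ranges touch at 11.16, and this probe set was not among those tested.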
